A study of Mus musculus with 6 samples.

Results

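Mgam2-ps and Mgam are neighbouring genes on mouse chromosome 6, and their RNA was followed in single nuclei of jejunal organoids exposed to conditioned medium of quiescent (QCM) or senescent (SCM) fibroblasts. They are 2 of the 31319 genes in the deposited count matrices. The pair was selected on the measured level of Mgam2-ps, chosen by the fact that it was higher in every SCM sample than in any QCM sample, so that difference, and that of Mgam in the same comparison, is given here as a description without a test. The organoids came from jejunal crypts of C57BL/6 mice aged 8 to 12 weeks, and both groups shared the strain, the tissue and the culture on fibroblast medium. They differed in whether the mouse embryonic fibroblasts that conditioned the medium were quiescent after serum withdrawal or senescent. The study's methods give X-rays and doxorubicin as ways to induce senescence, and the sample labels do not say which was used for these cultures. There were 3 samples per medium, 6 in all, and the labels do not say whether they were separate cultures. The deposited annotation places each of the 38154 nuclei in 1 of 15 clusters, numbered 0 to 14 without names.

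Mgam encodes maltase-glucoamylase, an enzyme anchored in the brush border of absorptive enterocytes, where it releases glucose from the ends of starch fragments. It works beside sucrase-isomaltase (Sis), a related enzyme of the same alpha-glucosidase family. Mgam2-ps is annotated as a transcribed unprocessed pseudogene, that is, a gene copy that kept its introns, is read into RNA and has no annotated coding sequence. Enterocytes arise from crypt stem cells, and digestive enzymes of this kind are known as features of their maturation.

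In GENCODE M21 on GRCm38, Mgam (ENSMUSG00000068587) spans chr6:40628831-40769123 on the plus strand, and its transcript Mgam-202 has 48 exons with a coding length of 5481 bases. Mgam2-ps (ENSMUSG00000102802) follows on the same strand at chr6:40778711-40855600, 9587 bases further on. It has 3 annotated transcripts, of 31, 14 and 10 exons, with lengths of 3745, 1921 and 1709 bases. Of the 31-exon transcript, Mgam2-ps-201, 4 blocks aligned to Mgam-202 on the same strand, with identities of 65.7%, 70.3%, 73.6% and 84.1%. The last of these was ungapped over 655 bases and lay at the 3′ end of Mgam2-ps-201, at bases 3087 to 3741 of 3745. The 2 pairs of stretches below, from these GENCODE transcripts, show how well exonic reads of the genes can be told apart, with the differing bases in capitals.

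The most alike stretch of 100 bases within 1 exon of each gene differed at 2 bases and lay in coding exon 38 of Mgam-202 (chr6:40757429-40757528) and exon 27 of Mgam2-ps-201 (chr6:40853571-40853670), both on the plus strand.
Mgam exon 38: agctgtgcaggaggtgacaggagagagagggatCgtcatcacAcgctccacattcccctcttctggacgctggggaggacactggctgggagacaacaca
Mgam2-ps exon 27: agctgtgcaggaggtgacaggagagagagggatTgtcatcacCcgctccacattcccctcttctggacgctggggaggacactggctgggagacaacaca
The least alike aligned stretch of that length differed at 38 bases and lay in coding exon 15 of Mgam-202 (chr6:40664823-40664922) and exon 14 of Mgam2-ps-201 (chr6:40815807-40815906), both on the plus strand.
Mgam exon 15: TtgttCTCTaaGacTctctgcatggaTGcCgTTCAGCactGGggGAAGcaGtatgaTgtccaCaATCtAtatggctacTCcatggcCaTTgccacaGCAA
Mgam2-ps exon 14: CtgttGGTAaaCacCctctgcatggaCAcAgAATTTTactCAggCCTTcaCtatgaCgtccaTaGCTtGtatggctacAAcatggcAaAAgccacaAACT
The longest run of bases shared exactly by any transcript of Mgam2-ps and any transcript of Mgam was 74 bases. Of the 3696 runs of 50 bases in Mgam2-ps-201, 25 (0.676%) also occurred in a Mgam transcript, and in the other Mgam2-ps transcripts there were 0 such runs of 1872 and 1660. Of the 3656 runs of 90 bases in Mgam2-ps-201, 0 occurred in a Mgam transcript. These shares are over whole transcripts, and the 3′ ends, which the libraries target, were not counted separately. A read short enough to lie within a shared run cannot be told apart by its bases. How such reads were handled in the counting is not given in the sources used here. Introns, from which much nuclear RNA derives, were not compared, so some uncertainty in the assignment of reads remains.

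**Figure D1:**
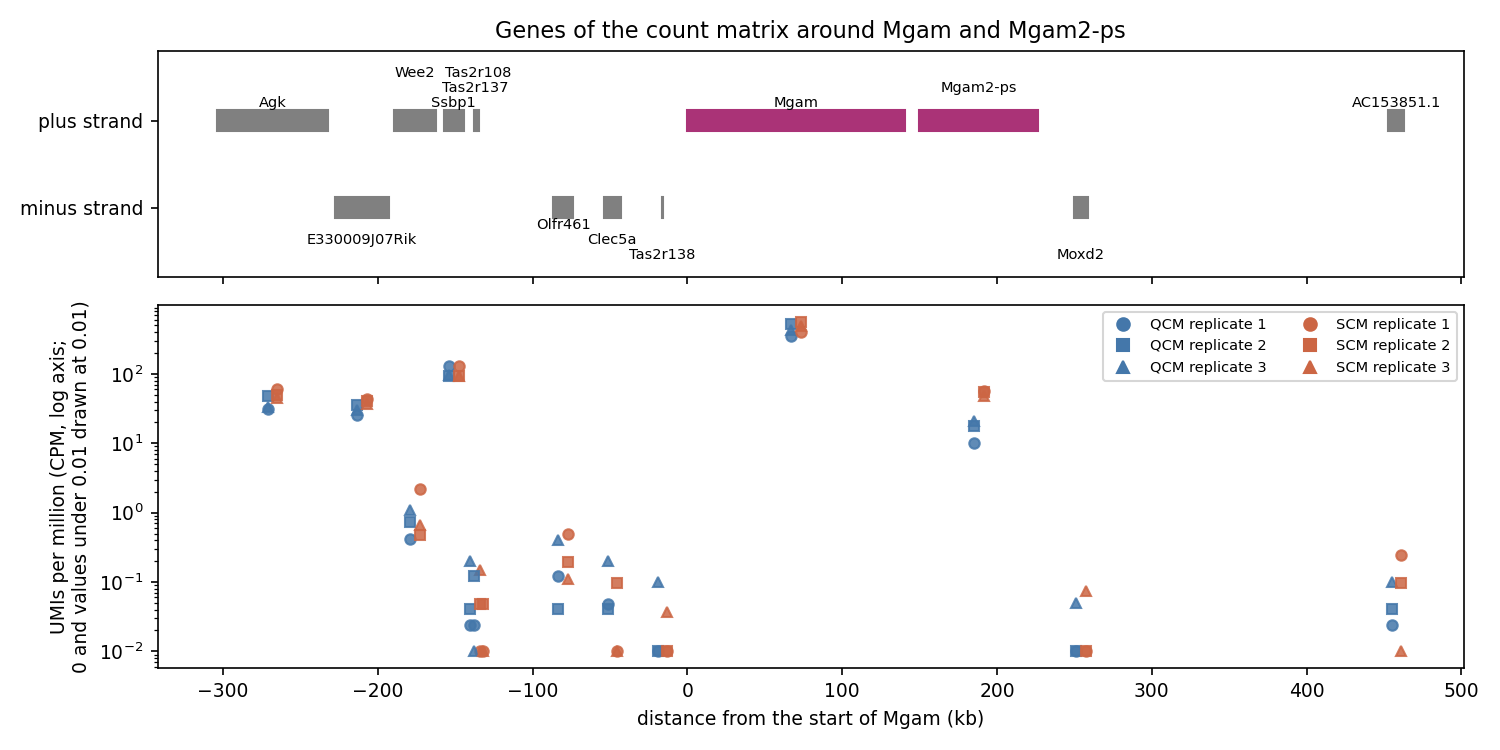
Upper panel, the genes of the count matrix within 250 kb of the pair, by strand and distance from the start of Mgam in kb. Lower panel, each sample's level in counts per 1000000 UMIs (CPM, log axis) at the middle of the same gene, with QCM in blue and SCM in orange and the replicate given by the symbol; the SCM and QCM symbols stand apart for Mgam2-ps and intermingle for Mgam.

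The samples held between 430 and 10833 nuclei and between 4071926 and 41035733 UMIs (unique molecular identifiers, which count captured RNA molecules). SCM replicate 1 stood apart with 430 nuclei. Of these, 175 (40.7%) carried a barcode also found in QCM replicate 1, 40 of them in the same cluster, whereas no other pair of samples shared more than 0.358% of the smaller sample's barcodes. The epithelial identity given in the labels was borne out by the markers: Fabp2, a fatty acid-binding protein of enterocytes, was counted at 62.6 to 625 CPM, and the fibroblast list of 6 genes summed to 0.288 to 2.71 CPM, with Col1a1 at 0 in 4 samples. Ribosomal protein genes took 4.96% to 14.2% of UMIs in QCM and 2.64% to 7.30% in SCM. The 8 enterocyte markers summed to 734 to 4481 CPM in QCM and 389 to 1321 CPM in SCM, and the 8 fetal epithelial markers to 102 to 178 CPM in QCM and 254 to 784 CPM in SCM, with none of either list at 0 in any sample. Their part in the differences between the media was not tested.

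Mgam2-ps RNA was higher in SCM exposed organoids. It was counted at 10.2, 17.6 and 20.7 CPM in QCM replicates 1, 2 and 3 and at 57.5, 54.3 and 48.6 CPM in SCM replicates 1, 2 and 3. These levels rested on 417, 428 and 413 UMIs in QCM and on 234, 1129 and 1303 in SCM. The 2 groups did not overlap, as the choice of the gene required, and the lowest SCM sample, replicate 3, lay far above the highest QCM sample, also replicate 3. The means were 16.2 ± 5.43 CPM in QCM and 53.5 ± 4.48 CPM in SCM (mean ± s.d., n = 3 each), a 3.31-fold difference. For comparison, 4.99% of the 19046 genes with enough counts had every SCM sample above every QCM sample. Of all 19046, whether or not their groups overlapped, 98 had a larger fold between the means. On the log2 scale, fitted with edgeR and TMM scaling, the difference was 1.59 ± 0.22 (SE).

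The nuclei with a barcode shared between SCM replicate 1 and QCM replicate 1 were also looked at on their own. In SCM replicate 1, Mgam2-ps stood at 54.1 CPM in the 175 shared and at 60.8 CPM in the 255 other nuclei. In QCM replicate 1 it stood at 15.3 CPM in the shared and 9.93 CPM in the 3616 other nuclei. Mgam stood at 372 CPM in the shared and 445 CPM in the other nuclei of SCM replicate 1, and at 348 and 357 CPM in those of QCM replicate 1. For Mgam2-ps, the shared and other nuclei held 110 and 124 UMIs in SCM replicate 1, and 27 and 390 UMIs in QCM replicate 1. In SCM replicate 1 the shared nuclei were lower than the others for both genes, and in QCM replicate 1 they were higher for Mgam2-ps. Whether these differences exceed counting error was not tested. Without nuclei with any shared barcode the log2 difference was 1.62, and without SCM replicate 1 it was 1.56.

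Mgam showed no such separation. It was counted at 356, 526 and 435 CPM in QCM replicates 1, 2 and 3, and at 409, 569 and 491 CPM in SCM replicates 1, 2 and 3. The groups overlapped over most of their range, and replicate 2 was the highest in each. The means were 439 ± 84.9 CPM in QCM and 490 ± 80.3 CPM in SCM (n = 3 each), and the difference between them was smaller than the s.d. of either group. The log2 difference was 0.01 ± 0.22 (SE) with TMM scaling and 0.16 with library size alone, a scaling that moved the median of all genes from -0.01 to 0.14.

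**Figure D2:**
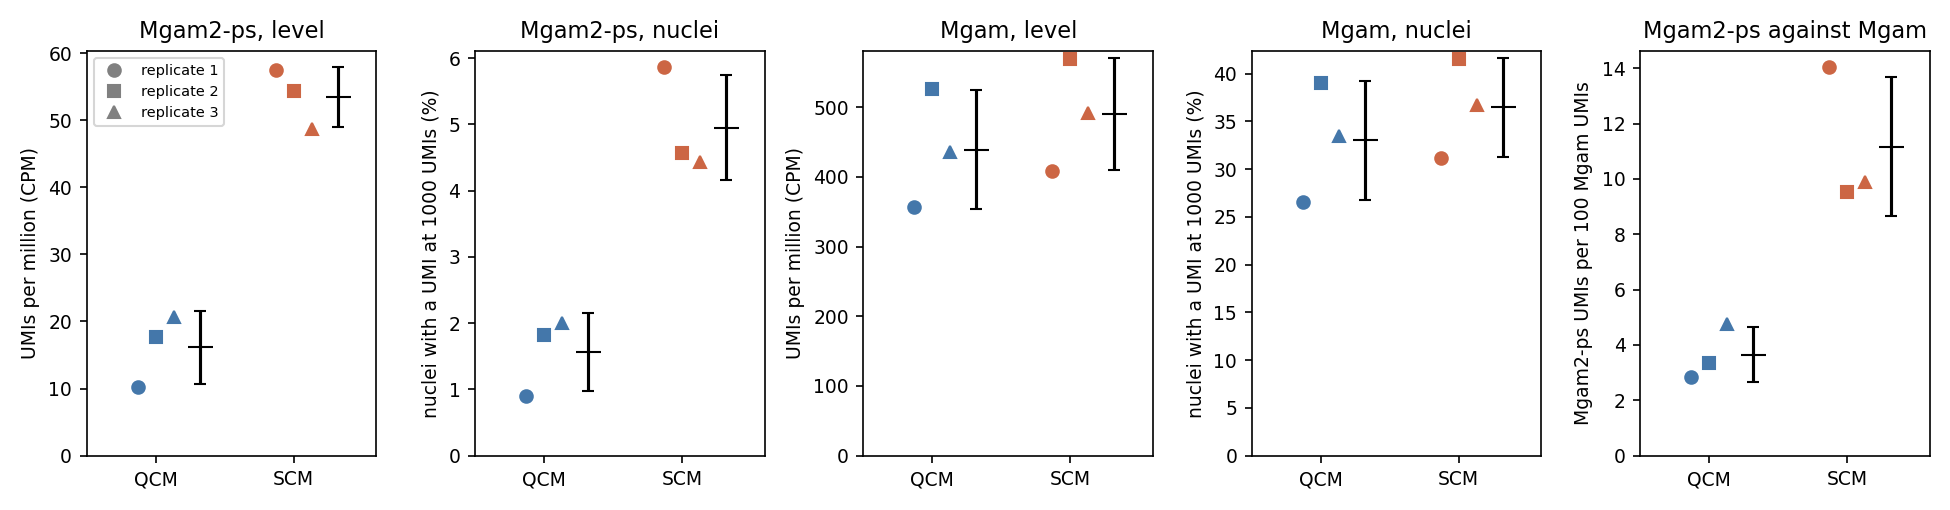
Levels (CPM), shares of nuclei with at least 1 UMI after thinning to 1000 UMIs per nucleus, and Mgam2-ps UMIs per 100 Mgam UMIs, 1 symbol per sample, with mean ± s.d. in black (n = 3). For Mgam2-ps the SCM samples lie between 48.6 and 57.5 CPM and the QCM samples between 10.2 and 20.7 CPM, whereas the groups overlap for Mgam.

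Mgam2-ps was detected in a larger fraction of nuclei in every SCM sample than in any QCM sample. The shares come from the same UMIs by which the gene was chosen, so their separation is a description. How many of all genes were placed in this way on this measure was not computed. At least 1 UMI was found in 8.36%, 4.65% and 3.61% of nuclei in QCM replicates 1, 2 and 3 and in 16.5%, 13.9% and 9.67% in SCM replicates 1, 2 and 3. Within QCM the order of the samples was the reverse of that of the levels, with the deepest sample, replicate 1, the highest. The Wilson 95% intervals, which cover counting error only, were 3.26% to 3.99% for QCM replicate 3 and 13.3% to 20.3% for SCM replicate 1, the least and the most frequent. Since depth differed, with median UMIs per nucleus from 1578 to 8260, each nucleus was also thinned to 1000 UMIs, which left out 0 to 1876 shallower nuclei per sample (106, 228 and 479 in SCM replicates 1 to 3; 0, 490 and 1876 in QCM). At that depth, Mgam2-ps was detected in 0.897%, 1.81% and 2.00% of QCM nuclei and in 5.86%, 4.56% and 4.43% of SCM nuclei. The groups were again apart, and QCM replicate 1, the highest of its group at full depth, became the lowest.

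Outside SCM replicate 1, most Mgam2-ps-positive nuclei held a single UMI: 78.2%, 86.2% and 89.9% of them in QCM replicates 1 to 3, and 45.1%, 74.0% and 82.3% in SCM replicates 1 to 3. A few nuclei carried many more. The highest count in 1 nucleus was 36 in SCM replicate 1 and 22 in SCM replicate 2, against 5 or 6 in the QCM samples and 8 in SCM replicate 3. The 10 nuclei with the most Mgam2-ps UMIs held 50.9% of the gene's UMIs in SCM replicate 1, and 4.22% to 11.6% in the other samples. For Mgam, the 10 nuclei with most of its UMIs held 32.5% in SCM replicate 1 and 1.86% to 5.54% in the other samples. With the 6% deepest nuclei of each sample left out, the means were 14.5 ± 5.68 CPM in QCM and 47.7 ± 0.99 CPM in SCM.

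Mgam was detected in 88.7%, 66.1% and 46.6% of nuclei in QCM replicates 1 to 3 and in 56.5%, 73.5% and 58.9% in SCM replicates 1 to 3. The difference between the means, SCM minus QCM, was -4.12 percentage points at full depth and 3.46 points after thinning, with 33.0% ± 6.25 in QCM and 36.5% ± 5.17 in SCM. The groups overlapped at both depths.

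Nuclei that held Mgam RNA also held Mgam2-ps RNA more often than Mgam-negative nuclei. At full depth this was so in every sample, for example 12.0% against 6.32% in SCM replicate 3. Deep nuclei are more likely to hold a UMI of any gene, and after thinning the pairs of shares came closer: 4.73% against 4.26% in SCM replicate 3 and 2.02% against 1.98% in QCM replicate 3. The odds ratio over the 6 samples ran from 1.78 to 9.19 at full depth and from 1.02 to 1.72 after thinning. In QCM replicate 1, the deepest sample, it hardly changed, from 1.78 to 1.72. The shares there were 8.77% against 5.13% at full depth and 1.29% against 0.754% after thinning. The part of depth in this co-detection was not tested.

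The ratio of the 2 genes within a sample does not depend on how the sample was scaled. Per 100 Mgam UMIs there were 2.85, 3.35 and 4.76 Mgam2-ps UMIs in QCM replicates 1, 2 and 3 and 14.1, 9.54 and 9.89 in SCM replicates 1, 2 and 3. The SCM samples lay above the QCM samples, which follows from the choice of Mgam2-ps where Mgam differs little, with means of 3.66 ± 0.992 in QCM and 11.2 ± 2.52 in SCM (n = 3 each). The ratio is of counted 3′ tags and not of length-scaled levels, so it serves only to compare samples.

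The clusters were set beside fixed marker lists. By these, absorptive (enterocyte-like) nuclei formed cluster 8, goblet- and Paneth-like nuclei cluster 6, fetal-like nuclei cluster 7, hormone-producing (enteroendocrine-like) nuclei clusters 9 and 10, and tuft-like nuclei cluster 11, while cluster 1 carried markers of several types and was left unnamed, as were the rest. In clusters 0 to 8 all 6 samples had at least 10 nuclei, and in clusters 9 to 12 the comparison was of 3 QCM and 2 SCM samples, without SCM replicate 1. Clusters 13 and 14 had too few nuclei in SCM or QCM samples for a complete comparison.

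The difference in Mgam2-ps was spread over the clusters. Its mean was higher in SCM in 13 of 13 clusters, as were the means of 49.8% to 63.9% of all genes with enough counts in each, and in 12 of them every SCM sample lay above every QCM sample. Over all genes with enough counts, 4.07%, 5.65%, 4.5%, 7.43%, 9.54%, 5.12%, 5.28%, 10.2% and 3.31% were placed in this way in clusters 0 to 8 in turn. In clusters 9 to 12, where only 2 SCM samples entered, the shares were 10.7%, 19.2%, 13.3% and 13%. Mgam2-ps itself had enough counts in 11 of the 13 clusters, not in clusters 10 and 12. Enough counts means a minimum level in at least as many samples as the smaller medium has. In clusters 3, 4, 7 and 11 Mgam2-ps met this only through the SCM samples, in which it was chosen to be high. The folds between the means ran from 2.12 in cluster 9 to 6.32 in cluster 11, with a median of 3.90. These values rested on 25 UMIs in all samples of cluster 12 and 937 in cluster 0, so the folds of the small clusters were imprecise.

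In cluster 0, the largest cluster, Mgam2-ps stood at 9.65, 18.3 and 18.4 CPM in QCM replicates 1, 2 and 3 and at 89.8, 48.6 and 42.2 CPM in SCM replicates 1, 2 and 3. The value of 89.8 CPM came from 10 UMIs in 19 nuclei, whereas SCM replicates 2 and 3 gave 299 and 340 UMIs. In the fetal-like cluster 7, it stood at 7.62, 14.5 and 13.2 CPM in QCM and at 58.6, 63.5 and 63.1 CPM in SCM. The SCM samples were close together there, though the value of SCM replicate 1 rested on 9 UMIs in 17 nuclei. In the goblet- and Paneth-like cluster 6, SCM replicate 1 gave 14 UMIs in 15 nuclei. The levels were 8.74, 10.3 and 15.1 CPM in QCM and 46.7, 49.1 and 46.2 CPM in SCM. Without the 6% deepest nuclei of each sample, they were 7.91, 11.9 and 11.1 CPM in QCM and 11.5, 29.9 and 38.9 CPM in SCM, where SCM replicate 1 kept 10 nuclei and fell within the QCM range, so that 11 of the 13 clusters were then without overlap. In the 11 clusters where Mgam2-ps had enough counts, from 1 (cluster 6) to 184 (cluster 1) genes had a larger fold between the means. This describes a gene chosen for this difference, which in some of these clusters had enough counts only through SCM, as given above. Mgam2-ps was counted higher in SCM both in the fetal-like nuclei and in nuclei of other marker classes. The clusters are parts of the same samples by whose totals the gene was chosen, so they are not separate observations. The part of free RNA, or of anything common to a whole sample, was not tested.

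The enterocyte-like cluster 8 was the exception to the separation. Mgam2-ps was counted there at 18.0, 17.6 and 50.01 CPM in QCM replicates 1, 2 and 3 and at 24.9, 165 and 85.8 CPM in SCM replicates 1, 2 and 3. SCM replicate 1, with 3 UMIs in 11 nuclei, lay below QCM replicate 3, with 54 UMIs in 395 nuclei. Cluster 8 had the highest Mgam2-ps level of all clusters in QCM replicate 3 and in SCM replicates 2 and 3, and the lowest of the 9 clusters measured in SCM replicate 1. In cluster 5, unnamed, SCM replicate 1 reached 166 CPM from 17 UMIs in 20 nuclei, whereas SCM replicates 2 and 3 stood at 47.3 and 63.7 CPM and the QCM samples at 19.2, 23.9 and 24.7 CPM.

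In the enteroendocrine-like cluster 10, Mgam2-ps stood at 3.73, 8.04 and 14.8 CPM in QCM and at 28.6 and 45.2 CPM in SCM replicates 2 and 3. In the tuft-like cluster 11 it stood at 4.78, 13.4 and 10.4 CPM in QCM and at 54.0 and 66.6 CPM in SCM replicates 2 and 3, from 2 to 13 UMIs per sample. The sparse clusters 13 and 14 are described by their counts. Cluster 14, of very deep nuclei, held 46 and 16 Mgam2-ps UMIs in QCM replicates 1 and 2 (18.0 and 20.7 CPM) none in the 1 nucleus of QCM replicate 3, and 85, 40 and 13 in SCM replicates 1 to 3 (64.9, 75.2 and 74.6 CPM). It supplied 36.3% of the Mgam2-ps UMIs and 32.2% of all UMIs of SCM replicate 1 from 7 nuclei, and without it the log2 difference over all nuclei was 1.57. In cluster 13, Mgam2-ps was counted in 3 of the samples, with 1 UMI each in QCM replicates 1 and 3 and 6 in SCM replicate 3.

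**Figure D3:**
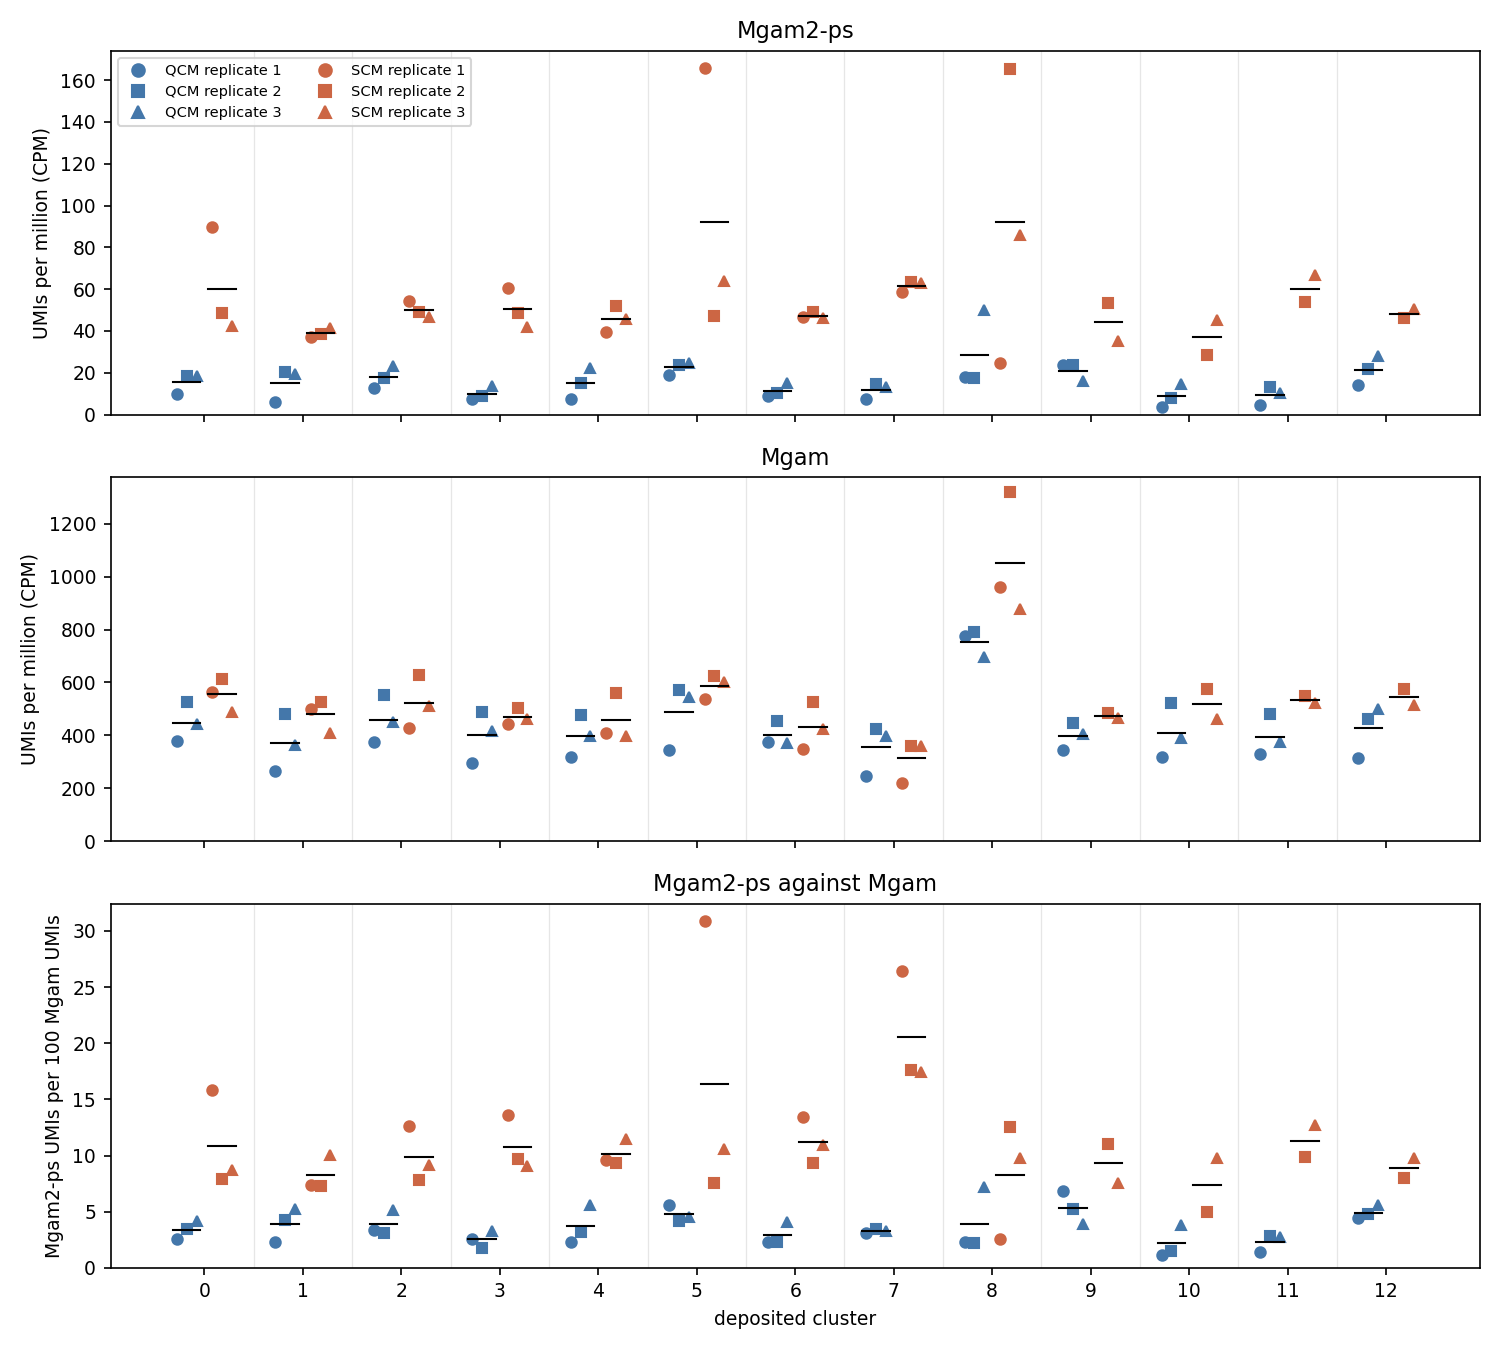
Mgam2-ps level, Mgam level (both CPM) and Mgam2-ps UMIs per 100 Mgam UMIs in deposited clusters 0 to 12, 1 symbol per sample with at least 10 nuclei, with black lines at the group means. Mgam2-ps lies higher in every SCM sample in all clusters shown but cluster 8, and Mgam is highest in cluster 8 in both media.

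The level of Mgam was related to the cluster. Cluster 8, enterocyte-like, had the highest Mgam level among the clusters with at least 10 nuclei in each of the 6 samples, at 778, 790 and 696 CPM in QCM replicates 1, 2 and 3 and at 961, 1320 and 876 CPM in SCM replicates 1, 2 and 3. This was 1.53 to 2.42 times the level over that sample's other clusters with at least 10 nuclei. The authors made the clusters from highly variable genes of the same nuclei, and whether Mgam was among them is not given in the sources used here. The difference between clusters is therefore a description. Within cluster 8, every SCM sample lay above every QCM sample, as did 3.31% of genes there, and the means were 755 ± 50.9 CPM in QCM and 1053 ± 236 CPM in SCM. The cluster held 11, 77 and 493 nuclei in SCM replicates 1 to 3.

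The fetal-like cluster 7 had the lowest mean Mgam level of the 13 clusters in both media. It was at 245, 423 and 396 CPM in QCM replicates 1, 2 and 3 and at 221, 360 and 361 CPM in SCM replicates 1, 2 and 3. The groups overlapped, and this was the only cluster of 13 in which the mean was lower in SCM (355 ± 96.1 against 314 ± 80.3 CPM). The direction depended on which samples entered. SCM replicates 2 and 3 lay below QCM replicates 2 and 3, but without SCM replicate 1 (34 Mgam UMIs in 17 nuclei), and with the low QCM replicate 1 kept, the mean was higher in SCM in 13 of 13 clusters, as it was with at least 25 nuclei required. The mean ratios of the media were farthest apart in cluster 7 among the 13 clusters, at 3.29 ± 0.157 Mgam2-ps UMIs per 100 Mgam UMIs in QCM and 20.5 ± 5.15 in SCM. The SCM replicates 1, 2 and 3 were at 26.5, 17.6 and 17.5. In the other 12 clusters the mean Mgam level was higher in SCM, by 1.08-fold (cluster 6) to 1.39-fold (cluster 8). With TMM-scaled CPM it was higher in the same number of clusters, but cluster 4, for example, stood at 419 CPM in QCM and 428 CPM in SCM. As above, most genes also had a higher mean in SCM in all clusters but cluster 0. In 4 of the 13 clusters (8, 9, 11 and 12) the groups did not overlap for Mgam, a count that single samples moved to 9 of 13 (without QCM replicate 2) and to 1 of 9 (without SCM replicate 2). In cluster 9, 10.7% of genes had every SCM sample above every QCM sample, in cluster 11 13.3% and in cluster 12 13%.

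RNA of both genes was detected in clusters of every marker class. After thinning to 1000 UMIs, Mgam was found on average in 48.6% (QCM) and 54.6% (SCM) of enterocyte-like nuclei and in 29.0% and 34.7% of goblet- and Paneth-like nuclei. In the enterocyte-like cluster the groups overlapped on this measure: SCM replicates 1, 2 and 3 were at 54.5%, 63.6% and 45.7% of 11, 77 and 484 nuclei, and the QCM samples between 46.5% and 50.8%. Mgam2-ps was found on average in 3.05% of enterocyte-like and 1.30% of goblet- and Paneth-like nuclei in QCM. In SCM replicates 2 and 3 it was found in 11.7% and 7.23% of enterocyte-like and in 3.81% and 4.07% of goblet- and Paneth-like nuclei. SCM replicate 1 had only 11 and 15 nuclei in these clusters, too few for a Mgam2-ps share, and they are included in the Mgam means. Median depths before thinning ran from 1941 to 11314 UMIs in the former and from 1788 to 12311 in the latter. The part of free RNA in these shares was not tested.

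Over the 15 clusters, the pattern of Mgam2-ps and that of Mgam had a Pearson r of 0.58 on log2(mean CPM + 1). The 5 genes of 12329 whose pattern was most like that of Mgam2-ps were Ilvbl (r = 0.95), Mtm1 (0.93), Gnai3 (0.92), Prdm9 (0.91) and Gm20069 (0.91). Mtm1 encodes the lipid phosphatase myotubularin, Gnai3 an inhibitory G protein subunit and Prdm9 a histone methyltransferase of meiosis. The 5 most like Mgam were Dgat1 (r = 0.95), Lpcat3 (0.95), Dao (0.94), Mertk (0.92) and Adipor2 (0.92). Dgat1 makes triglycerides and Lpcat3 remodels phospholipids, and Dao oxidises D-amino acids. These correlations describe likeness only. The clusters differ in depth, and samples with fewer than 10 nuclei of a cluster were left out of its mean, so the mix of media differed: 3 QCM and 3 SCM samples in clusters 0 to 8, 3 and 2 in clusters 9 to 12, 3 and 1 in cluster 13, and 2 and 1 in cluster 14. The part of this mix in the correlations was not tested. Mgam stood at rank 1233 in likeness to Mgam2-ps, and Mgam2-ps at rank 754 in likeness to Mgam.

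Of the 36 other genes annotated within 250 kb of the pair, 11 were in the matrix and the rest were not analysed here. Of these, 3 were counted at more than 100 UMIs. Ssbp1, which encodes a mitochondrial DNA-binding protein, was at 131, 94.5 and 95.6 CPM in QCM and at 129, 94.3 and 94.7 CPM in SCM, with no separation. Agk, a mitochondrial lipid kinase, was at 31.7, 48.0 and 33.8 CPM in QCM and at 61.2, 49.4 and 45.5 CPM in SCM, and its groups overlapped. E330009J07Rik, 342575 bases from Mgam2-ps, was at 25.4, 36.0 and 30.3 CPM in QCM and at 43.5, 41.3 and 36.5 CPM in SCM. Its groups did not overlap, by a margin of less than 1 CPM, as for 4.99% of all genes. The other 8 had at most 94 UMIs over all samples. They were Wee2, Tas2r137, Tas2r108, Olfr461, Clec5a, Tas2r138, Moxd2 and AC153851.1, and they include bitter taste and odorant receptors. Moxd2, the nearest gene of the matrix downstream of Mgam2-ps, 23193 bases away, was counted at 1 UMI in QCM and 2 in SCM.

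Other genes were read from a list of 31, called the brush border list, none of them Mgam or Mgam2-ps. It holds the alpha-glucosidase family, other digestive enzymes, genes of sugar transport and use, and transcription factors of enterocytes. Not all of its members act at the brush border or mark enterocytes, such as the lysosomal Gaa. Of the 31, 30 had enough counts to be tested. With edgeR's quasi-likelihood test and Benjamini-Hochberg adjustment over 19046 genes, 0 of the 30 passed the threshold of 0.05, as 0 of all genes did (0%). At an unadjusted p under 0.05, 3 of the 30 and 866 of all genes were counted, and DESeq2 called 20 genes in all, 0 of them in the list, where Lct, Ace and Slc2a5 had no DESeq2 p-value and could not be called. Of the 30 estimates, 25 were lower and 5 higher in SCM, with a median log2 difference of -0.59 against -0.01 over all genes tested. With library size alone 20 were lower and 10 higher, with a median of -0.43 against 0.14. The size of this difference depended on single samples: without QCM replicate 1, which had the highest enterocyte marker level, the median was -0.20, without SCM replicate 3 it was -0.91, and with replicates 2 and 3 of each medium alone it was -0.12.

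Within the alpha-glucosidase family, Sis was counted at 533, 419 and 542 CPM in QCM replicates 1, 2 and 3 and at 106, 358 and 477 CPM in SCM replicates 1, 2 and 3. Its groups overlapped, SCM replicate 1 was far below the others, and the log2 difference of -0.83 ± 0.51 did not pass the test (edgeR adjusted p = 0.929). Gaa, the lysosomal enzyme, was at 14.3 ± 1.62 CPM in QCM and 11.3 ± 0.814 CPM in SCM (log2 difference -0.52 ± 0.24, edgeR adjusted p = 0.927). Ganab, the catalytic subunit of glucosidase II of the endoplasmic reticulum, was at 107 ± 18.1 and 103 ± 10.0 CPM (-0.20 ± 0.16, edgeR adjusted p = 0.929). Ganc, a neutral glucosidase, was at 15.6 ± 2.04 and 19.4 ± 2.77 CPM (0.15 ± 0.19, edgeR adjusted p = 0.930). Myorg, listed as AI464131, was at 8.36 ± 0.944 and 5.25 ± 1.99 CPM (-0.80 ± 0.36, edgeR adjusted p = 0.927). None of the 5 had every SCM sample above every QCM sample, whereas Gaa and Myorg had every SCM sample below every QCM sample, a placement of 2.09% of all genes.

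In the remaining groups, both other disaccharidases (lactase and trehalase), all 4 genes of sugar transport and use, and 11 of 12 peptidases and phosphatases tested had estimates below 0, with median log2 differences of -1.98, -1.39 and -0.91. These counts and medians rested on QCM replicate 1: without it, 1 of 2, 3 of 4 and 7 of 12 were lower, with medians of -0.24, -0.54 and -0.14. With replicates 2 and 3 alone the medians were -0.26, -0.42 and -0.03. Of the 7 transcription factors of enterocytes, 4 were lower and 3 higher, with a median of -0.02. Without SCM replicate 1, 2 were lower and 5 higher, with a median of 0.085, and without SCM replicate 2 the median was -0.10. None of the genes in these groups passed the test with all 6 samples. The p-values measure the spread between these samples, which may be technical.

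**Figure D4:**
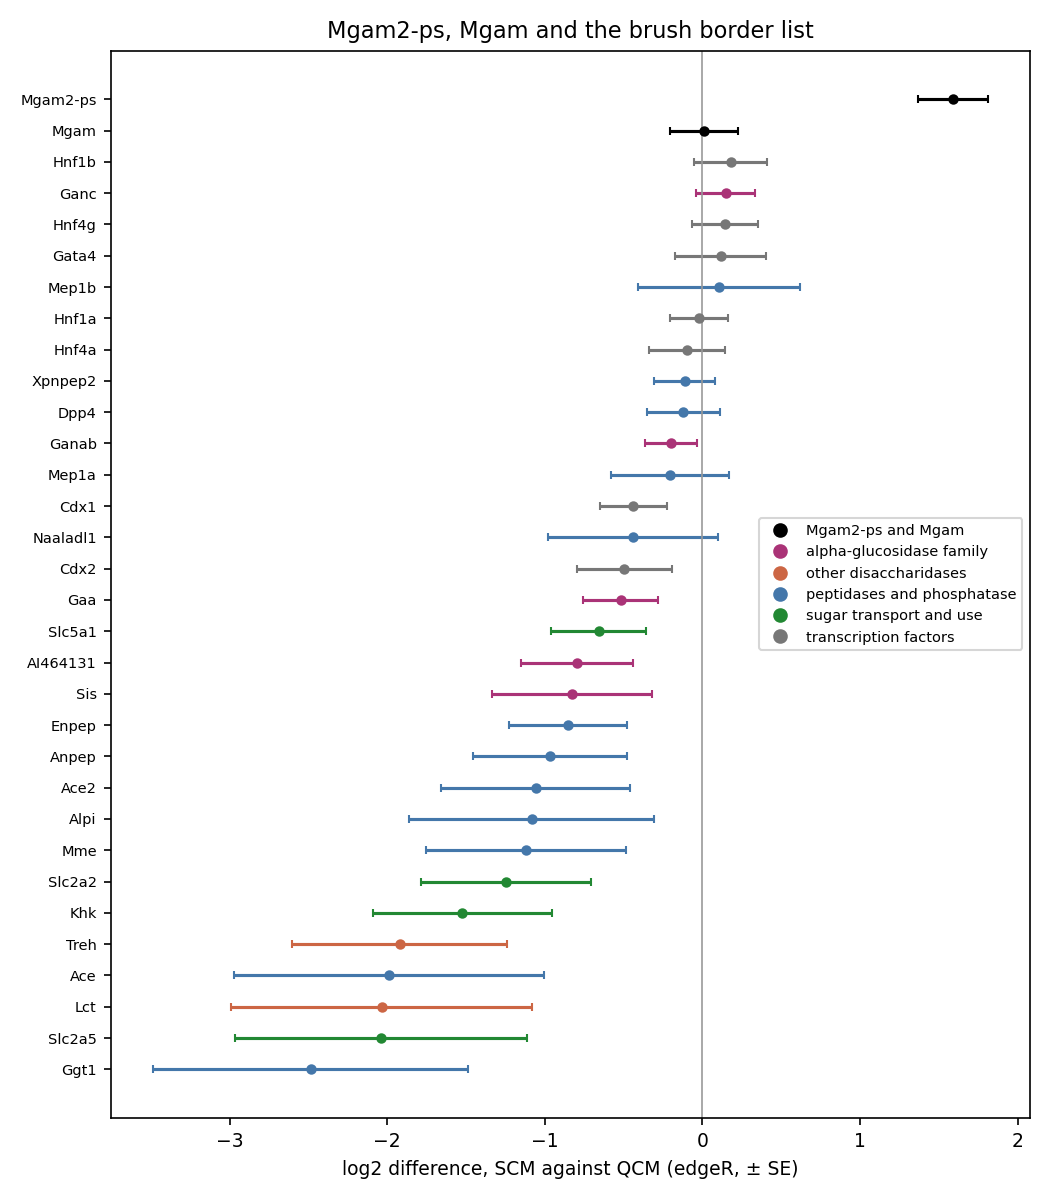
Log2 difference between SCM and QCM (edgeR estimate ± SE, 3 samples per medium) for Mgam2-ps, Mgam and the 30 tested genes of the brush border list, coloured by group. Mgam2-ps stands at 1.59 and Mgam at 0.01, and 25 of the 30 listed genes lie below 0.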

How the data were processed

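Nuclei were isolated from frozen organoids, and libraries were prepared with the 10x Genomics chemistry for 3′ RNA ends. The deposited matrices hold UMI counts per gene and nucleus, which the authors made with Cell Ranger on mm10; the submitters' processing notes give version 2.1.1. Whether reads in introns were counted is not given in the sources used here. The cluster of each nucleus was taken from the annotation deposited by the authors, who clustered the nuclei after integration by sample. No column of per-sample values was left unused for lack of a sample (0 columns).

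All 38154 nuclei were used and their counts summed over each sample, and over each cluster within a sample (at least 10 nuclei, at least 2 samples per medium). CPM are counts per 1000000 counts of the same sum. Sums were fitted in R 4.3.3 with edgeR 4.0.16 (TMM, quasi-likelihood, filterByExpr with a minimum count of 10). DESeq2 1.42.0 and limma 3.58.1 served as alternatives, as did other filters, scalings and subsets of nuclei. "Enough counts" means passing filterByExpr. Tables were made in Python 3.11.15, and transcripts were aligned with BLAST 2.17.0 (dc-megablast). Gene names came from GENCODE M21, which matched 31244 of 31319 identifiers. No doublet caller was run; instead the 6% of nuclei with the most UMIs per sample were left out as an alternative.

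Clusters were named from at least 3 markers, 2-fold higher than in other nuclei at 5 CPM or more, limits set with the clusters known. Genes named were the pair, neighbours within 250 kb, the brush border list (with values for its family members and those called) and, for each of the pair, the 5 genes most alike over clusters, among genes with at least 10 CPM in 1 cluster. The pair and the lists were chosen with earlier results of these data known. The edgeR script was tested on simulated data.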

Additional observations from a re-analysis of the deposited data

How the results depend on the processing

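The log2 difference of Mgam2-ps, 1.59, ranged from 1.38 to 1.87 over 16 alternatives, the lowest being replicates 2 and 3 alone and the highest clusters weighted equally (9 clusters). Leaving out 1 sample gave 1.43 to 1.78. That of Mgam, 0.01, ranged from -0.10 to 0.26 over the same alternatives, and all were within the spread between replicates. Leaving out 1 sample gave -0.10 to 0.14. Of these alternatives, 3 (shared barcodes, cluster 14, replicates 2 and 3 alone) were chosen after seeing the data.

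DESeq2 called 20 genes where edgeR called 0, and the other 14 alternatives called 0; the cause was not tested. The difference in the share of nuclei with a Mgam2-ps UMI, 7.84 percentage points, was 3.38 after thinning to 1000 UMIs, which lowers every share by construction, and 6.27 to 9.69 with 1 sample left out. For Mgam the difference of -4.12 points became 3.46 after thinning and ran from -14.4 to 6.67 with 1 sample left out (6.67 without QCM replicate 1). The count of clusters with higher Mgam2-ps, 13, was 9 to 13 with 1 sample left out, and that of Mgam, 12, was 7 to 13; without SCM replicate 2 or 3 only 9 clusters could be compared, with 9 and 9 higher for Mgam2-ps and 7 and 8 for Mgam. The count of clusters without overlap ran from 8 to 13 for Mgam2-ps (12 as reported) and from 1 to 9 for Mgam (4 as reported) with 1 sample left out. The median log2 difference of the brush border list, -0.59, was -0.12 with replicates 2 and 3 alone and -0.91 to -0.20 with 1 sample left out (-0.20 without QCM replicate 1, -0.91 without SCM replicate 3).

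Same-numbered samples of the 2 media deviated together in replicates 1 and 2 (r = 0.37 and 0.44) but not in replicate 3 (-0.08), so the numbers were not taken as pairs. With the replicate block the log2 differences were 1.62 for Mgam2-ps and 0.00048 for Mgam, the list's median was -0.56, and 0 genes were called. Precision was limited by SCM replicate 1, with 234 Mgam2-ps UMIs, and by clusters 10 to 12, with 25 to 35 Mgam2-ps UMIs each.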
